A study of Mus musculus with 12 samples.

Results

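The regions described here are the noncoding stretches of the mouse genome from which RNA was detected in unstimulated stem cells. The array design used for the retinoic acid experiment carries, beside its probes for annotated genes, 16194 probes that are named only by a chromosome region and a letter, F or R. They fall into 4610 regions, counted by identical name, and a region was kept where at least 1 of its probes was well above background on all 3 control arrays. That rule kept 3385 regions, or 73.4%, with 8029 probes that met it, and left 1225 regions out. The regions were thus chosen by the detection flags of the DMSO arrays, and their DMSO levels are a description with no test. The choice also favours losses over gains, since a region had to be present in the controls to be counted.

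Much of a mammalian genome outside protein-coding genes is transcribed. Long noncoding RNAs are transcripts that encode no protein, often low in abundance and restricted to few cell types, and some act on the chromatin of neighbouring genes. In mouse embryonic stem cells several such RNAs are controlled by the same factors that maintain pluripotency. Retinoic acid, the active form of vitamin A, enters the nucleus, binds retinoic acid receptors and starts differentiation.

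J1 cells are a mouse embryonic stem cell line. They were adapted to gelatin, without feeder cells named in the labels, and grown with serum replacement and 1000 U/mL of leukaemia inhibitory factor (LIF), which both groups kept throughout. One group of 3 samples received 1 µM retinoic acid (RA) for 24 h and the other group of 3 received 1 µL of its solvent, DMSO, for 24 h. The series holds 12 samples in 4 groups, but the array design of its vitamin C and water groups has 0 probes named by region, so no measurement on samples outside the RA experiment could be made. Whether a group's samples were grown as separate cultures is not stated, so the tests rest on a spread between samples that may be technical. The DMSO arrays were all on slide 1 and the RA arrays all on slide 2, so that slide and treatment cannot be told apart.

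A level is given throughout as log2 of the processed signal relative to the 75th percentile of its array, so that 0 marks that percentile and -3 lies 3 log2 units under it. A difference is the RA level minus the DMSO level on the same scale. A region is represented by the brightest, by mean level over all 6 arrays, of its probes that met the rule. The RA arrays enter this choice, which can favour probes that rose. A region is called higher or lower where its representing probe passed an adjusted p of 0.05 with limma in the fit over all 37050 probes tested. Levels are not compared between probes as amounts of RNA. Regions are named by their mm9 coordinates and by F or R as the files write them. The letters are taken here as the 2 strands, which the files do not define. Genes next to the regions were not assigned, because no annotation of that build was used here.

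The 6 arrays were similar in depth of detection, with 60.9 to 65.6% of all probes well above background and no saturated spot. For region probes alone the share was 53.7, 54.6 and 54.2% on the DMSO arrays and 51.2, 49.5 and 46.1% on the RA arrays. The 75th percentile itself, in log2 signal, was 9.2577, 9.2488 and 9.2475 on the DMSO arrays. On the RA arrays it was lower, at 8.4614, 8.6004 and 8.1684. Scaling to the 75th percentile removes this gap, which coincides with slide and treatment. The part of this gap in the region results was not tested. Over region probes the arrays correlated at 0.988 to 0.989 within DMSO, at 0.968 to 0.979 within RA and at 0.805 to 0.828 between the groups. Of 12 embryonic stem cell markers, all were detected on the 3 DMSO arrays, and 10 fell and 2, Nanog and Lin28a, rose in RA. The 12 markers had a median difference of -4.36 and a summed linear level of 644 to 662 in DMSO and 129 to 133 in RA. Such sums weigh bright probes most, and Dppa5a, at a level of 8.39 in DMSO, was the largest part here. All 8 retinoic acid response genes on the list rose. Of 10 fibroblast markers 7 were tested, of which 6 rose and 1, Thy1, fell, and their summed level went from between 1.98 and 2.14 in DMSO to between 38.1 and 40.8 in RA. In RA that sum was mostly Col1a2, at a level of 5.11, and the median difference of the 7 genes was 4.13. Twist2 was the fibroblast marker of these 7 that was on no DMSO array well above background. Primitive endoderm markers rose in 7 of 8 genes (summed level 1.67 to 1.89 and 6.94 to 7.75), and neural markers rose in 5 of 7 (7.48 to 7.62 and 20.5 to 21.3). The neural markers that fell were Tubb3 (-2.89) and Zic1 (-1.11), but another Zic1 probe differed by 7.53. The part of these markers' cells in the region results was not tested, and in RNA from whole cultures fewer cells of a type and less RNA per cell cannot be told apart.

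The detected regions were spread over both strands and all lengths. They comprised 1694 of 2318 F regions (73.1%), 1688 of 2289 R regions (73.7%) and the 3 regions with no letter. Their lengths ran from 67 to 533972 bases with a median of 11751 (quartiles 2815 and 27582), against a median of 6801 for the regions left out. There were 609 of them under 1000 bases and 132 over 100000. The share detected moved with the number of probes a region has: 384 of 690 regions with 1 probe met the rule (55.7%), 819 of 975 with 5 probes (84%) and 145 of 147 with 10 probes (98.6%). By chromosome the share ran from 65.7% on chromosome 3 to 82.1% on chromosome 11. In 1340 regions every probe met the rule, and in 1330 exactly 1 probe did.

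In the control cells most of these regions gave weak signal, and a few were among the brightest probes on the array. The representing probe's DMSO level ran from -5.93 to 8.66, with a median of -2.84 and quartiles of -4.17 and -1.12. The other DMSO-detected probes of the design, mostly for annotated genes, had a median of -0.36. Replicates were close: the median SD of a region over arrays was 0.10 in DMSO and 0.20 in RA. The brightest region was chr11:22681800-22707775_R, at 8.61, 8.70 and 8.66 on the DMSO arrays and 8.44, 8.32 and 8.52 on the RA arrays. Its difference of -0.23 ± 0.08 (SE, n = 3 per group) was called, but not with quantile normalization, where it was -0.06. The next, chr17:48068261-48087905_F, measured 8.33, 8.48 and 8.49 in DMSO and 8.11, 7.97 and 8.26 in RA. A pair of overlapping F regions on chromosome 17 that are also among the 6 brightest had larger falls. The brighter, chr17:39983902-39985688_F, was at 8.38, 8.40 and 8.27 in DMSO and 7.31, 7.27 and 7.68 in RA, with 3 of 3 probes called lower. The other, chr17:39960567-39992817_F, was at 8.0, 7.94 and 7.94 in DMSO and 6.94, 6.79 and 7.21 in RA, with 4 of 4 probes called lower. In chr6:116123643-116124550_F, at 8.23, 8.28 and 8.26 in DMSO and 7.47, 7.53 and 7.40 in RA, all 3 probes were called lower. The remaining region of the 6 brightest, chr7:108209996-108216032_R, differed by -0.34 ± 0.10, and by 0.01 with quantile normalization. In each of these 6 regions the RA arrays lay below the DMSO arrays without overlap on the main scale. The same held for 21.6% of all the regions and 38.6% of all probes tested. Falls were common among bright probes. Of DMSO-detected probes with a DMSO level from 2 to 9, 55.3% of region probes and 64.3% of other probes were called lower.

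At the other end lay regions that met the rule by little. The region chr5:144517700-144526071_F was at -5.99, -5.78 and -6.03 on the DMSO arrays and chr10:62812866-62831016_F at -5.93, -5.71 and -5.84. The latter was called higher (0.41 ± 0.13), though its RA levels of -5.48, -5.59 and -5.19 were not well above background. A call of higher thus does not require detection in RA. Slightly brighter on 2 arrays but near the limit on the third were chr1:69555180-69555559_R (-5.38, -5.47 and -6.04) and chrX:150159252-150181275_F (-4.99, -5.08 and -6.04). Just outside the rule, with 2 of 3 DMSO arrays well above background, were chr9:41213456-41340170_R (-6.11, -4.54 and -4.71), chr13:78341864-78375825_R (-4.04, -5.89 and -5.46), chr10:93871635-93873477_F (-5.01, -4.84 and -5.75) and chr1:38892041-38893543_R (-4.84, -5.76 and -5.07). The first of these reached -2.46, -2.12 and -1.50 in RA, so that regions with clear RA signal also stand among those left out.

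After RA more of the regions were higher than lower relative to the array's 75th percentile. The RA arrays' medians over the regions were -2.39, -2.52 and -2.26, against -2.83, -2.82 and -2.82 on the DMSO arrays. Of the 3385 regions 1718 (50.8%) were called higher, where 36% of all probes tested were, and 679 (20.1%) were called lower, against 35.5% of all probes tested. Among the other DMSO-detected probes 31.5% were called higher and 41.1% lower. Another 988 regions were not called. Without choosing 1 probe per region, 39.5% of all DMSO-detected region probes were called higher and 27.4% lower, with a median difference of 0.20. The regions' median difference was 0.43, with quartiles of -0.23 and 0.90, against 0.03 over all probes tested and -0.12 over the other DMSO-detected probes. The RA arrays lay wholly above the DMSO arrays in 1810 regions (53.5%, against 38.5% of all probes tested) and wholly below in 730 (21.6%, against 38.6%). The split depended on the scaling. Rises made up 71.7% of the called regions here, 54.3% with median scaling, 42.0% with spike-in scaling, 61.6% with quantile normalization, 61.5% with the authors' series values and 84.7% with normexp background correction. The share also depended on membership: where every probe of a region had to be detected in DMSO, 480 were called higher and 468 lower, rises were 50.6% and the median difference was 0.035. Median and spike-in scaling move the median of all probes from 0.03 to -0.31 and -0.46, so each of the changes below is relative to the bulk of the array.

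At least 2-fold rises were called in 701 regions (20.7%, against 17.6% of all probes tested) and at least 2-fold falls in 350 (10.3%, against 14.5%). At 4-fold or more 122 were called higher (3.6%, against 6.52% of all probes tested) and 146 lower (4.31%, against 4.82%). At 16-fold or more 11 were called higher (0.325%, against 1.83%) and 16 lower (0.473%, against 0.721%). Of the 1051 regions called at 2-fold or more, 0 changed sign with median, spike-in or quantile scaling, 1 did with the authors' values and 81 did with normexp.

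**Figure D1:**
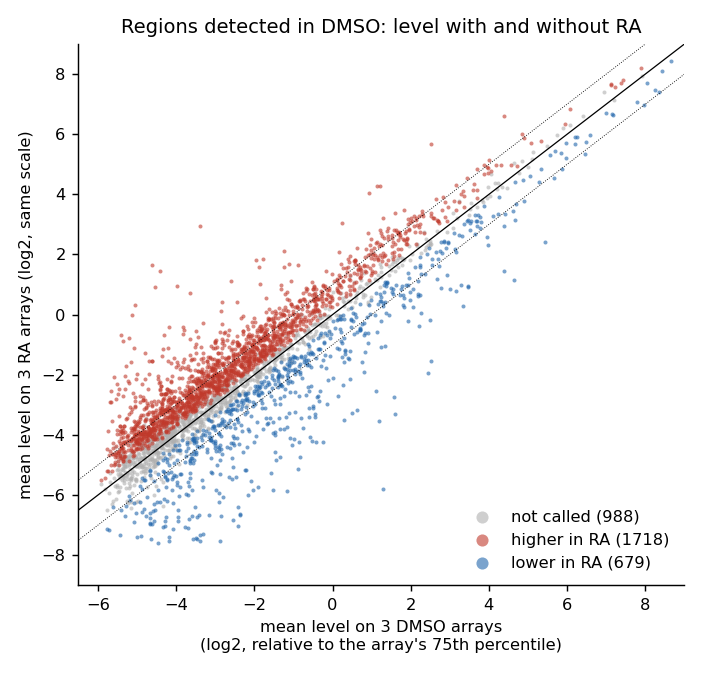
Each point is 1 of the 3385 regions, with its mean level on the 3 DMSO arrays on the x axis and on the 3 RA arrays on the y axis, both log2 relative to the array's 75th percentile. The solid line marks equality and the dotted lines a 2-fold difference. The 1718 regions called higher are in red, and the 679 called lower, in blue, reach down to levels at which RA arrays no longer detect a probe.

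On the 75th-percentile scale the response fell with the level in DMSO, both in region probes and in the other probes. The DMSO level is also subtracted in the difference, so response and level are not independent. The part of this shared term in the fall was not tested. Among all 8029 DMSO-detected region probes the median difference was 0.36 in the class from -7 to -5, 0.23 from -3 to -2, -0.11 from -1 to 0 and -0.33 from 2 to 9. The other DMSO-detected probes gave 0.57, 0.22, -0.09 and -0.43 in the same classes. With quantile normalization the region probes showed no such fall, with -0.05 in the lowest class and -0.07 in the highest, while the other probes went from 0.16 to -0.16; the authors' values gave the same pattern (-0.05 and -0.07, against 0.16 and -0.16). On the main scale the region probes' median was below that of the other probes in 4 of 8 classes. Weak probes made up more of the regions' total: 12.8% of region probes lay in the lowest class and 4.32% in the highest, against 5.04% and 27.5% of the others. Over all DMSO-detected region probes, without choosing 1 per region, 39.5% were called higher and 27.4% lower.

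**Figure D2:**
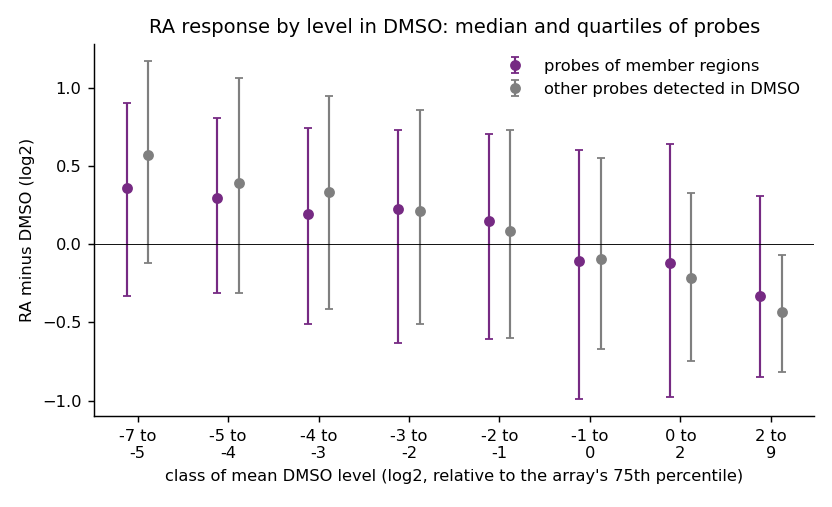
Points are medians and bars are quartiles of the RA minus DMSO difference (log2) over probes in 8 classes of mean DMSO level, for probes of the regions (purple) and other DMSO-detected probes (grey). On this scale, though not for the regions with quantile normalization or the authors' values, both series fall with the DMSO level, from 0.36 and 0.57 in the lowest class to -0.33 and -0.43 in the highest, and their quartiles overlap in every class. The DMSO level is also subtracted in the difference, so the axes are not independent.

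The largest difference downward was in chr3:75451370-75459674_R, a region of 8305 bases. Its brightest probe was at 1.27, 1.31 and 1.30 on the DMSO arrays and at -6.23, -4.80 and -6.40 on the RA arrays, with a difference of -7.10 ± 0.42. That probe was well above background on 1 RA array only, so the size of the difference rests in part on arrays below detection; with each RA array held at no less than its lowest signal well above background, it was 88.2-fold. All 4 probes of the region were called lower, and those on no RA array well above background were at least 73.6-fold and at least 95.5-fold lower. The F entry there, chr3:75451370-75459674_F, has 1 probe, at -4.11, -4.29 and -4.58 in DMSO and -7.56, -4.52 and -6.97 in RA, and was not called.

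Other large falls came from regions well into the measured range in both groups. Among them chr18:3003075-3016150_F was at 1.57, 1.56 and 1.69 in DMSO and -3.39, -3.18 and -3.29 in RA, a difference of -4.90 ± 0.09. For chr16:3111550-3130500_R the DMSO arrays read 1.10, 1.13 and 1.31 and the RA arrays -3.60, -3.51 and -3.54, a difference of -4.73 ± 0.08 with 3 of 3 probes called lower. Further along chromosome 16, chr16:3337275-3355950_F read 1.5, 1.53 and 1.68 in DMSO and -2.86, -2.85 and -2.53 in RA, a difference of -4.32 ± 0.12 with 4 of 4 detected probes called lower. In all of these the groups are separated by several log2 units while arrays of a group lie close together. They were picked as the largest falls among called regions without overlap, so this separation follows from the choice and is no support. These 3 regions start within the first 4 Mb of their chromosomes in the mm9 numbering. Of the 43 detected regions that do so, 19 were called higher and 16 lower, with a median of 0.15 (10 and 18 called with spike-in scaling). Of all the regions 50.8% were called higher and 20.1% lower, and of all probes tested 36% and 35.5%. The counts were not tested against these shares. That window was chosen after the values were seen.

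In chr2:181650800-181669350_F the probes disagreed. The brightest was at 2.37, 2.40 and 2.54 in DMSO and -1.98, -2.03 and -1.85 in RA (-4.39 ± 0.09), 2 probes were called lower in all, and another was called higher by 0.89.

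The other 3 of the 8 largest falls ended below detection, and their folds are lower bounds: the DMSO mean is set against the mean over RA arrays of the higher of the probe's own signal and the lowest signal well above background. The 215-base region chr4:127020290-127020504_F was at -1.22, -1.11 and -1.15 in DMSO and at -5.75, -6.16 and -5.65, not well above background, in RA, so it was at least 22.0-fold lower. The region chr4:146889650-146904300_R went from -2.86, -2.91 and -2.86 to -7.57, -7.73 and -7.31 (at least 6.74-fold), and chr11:22510175-22522025_R from -2.51, -2.49 and -2.23 to -7.36, -6.63 and -7.13 (at least 9.32-fold). In all 3, every DMSO-detected probe was called lower.

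Where the opposite strand of these regions was also detected, it mostly fell as well. The R entry of the chromosome 18 stretch, chr18:3003075-3016150_R, was brighter and went from 5.44, 5.37 and 5.48 in DMSO to 2.44, 2.37 and 2.43 in RA (-3.02 ± 0.07). The R entry of the chromosome 2 stretch, chr2:181650800-181669350_R, went from 1.86, 1.87 and 2.02 to -0.23, -0.33 and -0.06 (-2.12 ± 0.10). On chromosome 4, chr4:146889650-146904300_F went from 1.09, 1.12 and 1.10 to -2.20, -2.79 and -2.65 (-3.65 ± 0.16) and stayed in the measured range. The exception among called strands was chromosome 11, where the F entry was called higher.

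Complete loss of detection was uncommon. In 3074 regions a single probe was well above background on all 3 RA arrays, in 140 the best probe was on 2, in 84 on 1, and in 87 (2.57%) no probe was on any RA array. Of these 87, 72 were called lower, which their choice by detection in DMSO and not in RA favours. The DMSO levels of the 87 had a median of -4.46 and a highest value of -1.16, and the bound exceeded 2-fold in 46 and 10-fold in 3. Besides the chromosome 4 region above, the latter were chrX:100481826-100483511_R (at least 17.3-fold, 3 probes) and chr9:40029344-40050160_R (at least 12.0-fold, 1 probe). Per probe, 7.98% of DMSO-detected region probes and 2.88% of the others were on no RA array well above background. In matched level classes the shares were 11.5 and 11.5% from -5 to -4, 6.64 and 4.40% from -4 to -3, and 3.99 and 1.82% from -3 to -2. The lowest level called well above background was -6.05 to -6.11 on the DMSO arrays and -5.68, -6.18 and -5.03 on the RA arrays, so the limit was not the same in both groups.

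The steepest rise was in chr11:96175764-96176029_F, a region of 266 bases. It stood at -3.34, -3.41 and -3.44 in DMSO and 3.01, 2.61 and 3.23 in RA, an 81.4-fold difference (6.35 ± 0.16), and its 3 probes agreed within 6.23 to 6.35. In chrX:123306246-123307974_F the single detected probe went from -4.58, -4.68 and -4.56 to 1.23, 1.18 and 2.52 (6.25 ± 0.37), with replicate 3 apart from the other RA arrays. The 550-base region chr2:115900355-115900904_F rose from -3.95, -5.01 and -4.68 to 0.88, 0.51 and 1.39 (5.47 ± 0.33, both detected probes called). Last of the 8 was chr12:89092175-89105525_F, at -5.31, -5.49 and -5.46 in DMSO and -0.66, -0.63 and -0.72 in RA (4.75 ± 0.08, 1 detected probe). Groups without overlap were a condition for naming the largest falls and rises.

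Another 3 of the 8 largest rises overlap on the F strand of chromosome 5 and so are not separate observations. They are chr5:15033568-15033987_F (-4.20, -4.55 and -4.47 in DMSO, 1.47, 1.30 and 1.61 in RA), chr5:14996031-15035334_F (-4.82, -5.33 and -5.03, then 0.63, 0.48 and -0.18) and chr5:14923900-15062725_F (-3.98, -4.0 and -3.93, then 0.98, 0.74 and 1.10). The detected regions around them, joined across gaps of up to 100 kb, form a run of 8 on the F strand alone from 14923900 to 15223375. Of these 7 were called higher by at least 2-fold, with differences up to 5.87, and chr5:15176325-15223375_F, the brightest, was called lower (-0.36 ± 0.11). At least 2-fold rises were called in 20.7% of all the regions and 17.6% of all probes tested. Several of the 8 overlap and so are not separate observations. By the mean of detected probes all 8 were called higher. This run was singled out after its values were seen.

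**Figure D3:**
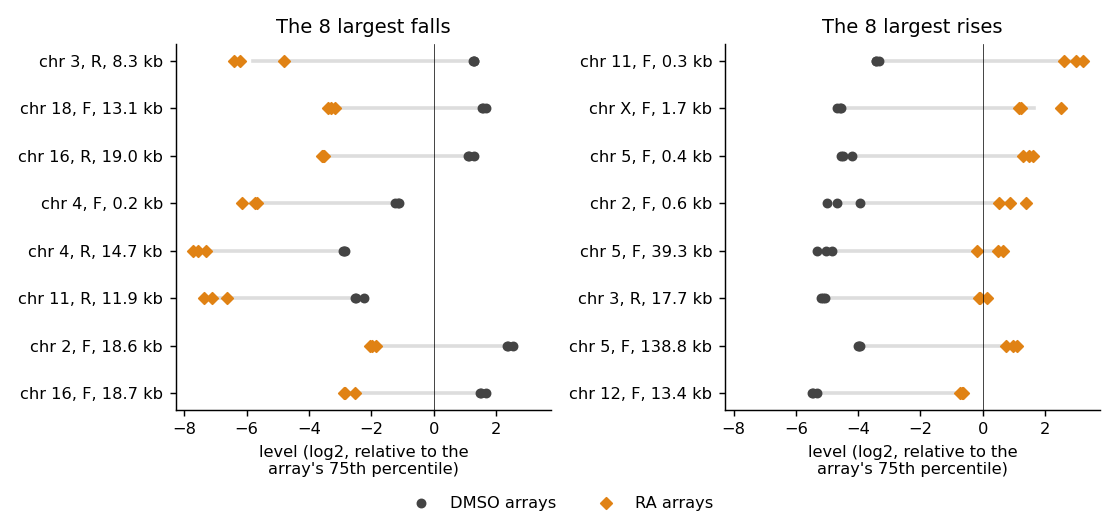
Levels on each DMSO array (black circles) and each RA array (orange diamonds) for the 8 largest falls and the 8 largest rises, log2 relative to the array's 75th percentile, with chromosome, strand letter and length. Grey lines join the group means. The 16 regions were taken only from called regions whose groups do not overlap. The RA spread is widest in the chromosome 3 R region and the chromosome X region.

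Regions that did not move are of interest for their spread. The smallest difference was in chr6:115468025-115489250_R, at -3.90, -3.72 and -3.91 in DMSO and -4.12, -3.74 and -3.67 in RA, although another of its 4 probes was called lower (-0.85). In chr9:88336331-88336978_R the DMSO arrays read -1.96, -1.88 and -1.95 and the RA arrays -1.85, -2.10 and -1.83. The groups also overlapped in chr8:124648600-124731250_R and chr14:65436123-65436905_R, which lay near -5.35 and -4.92 in both. Such equality holds on the 75th-percentile scale only, and with spike-in scaling chr9:88336331-88336978_R was called lower (-0.48).

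Probes within a region often disagreed. Among the 2055 regions with at least 2 DMSO-detected probes, all differences had the same sign in 1369 (66.6%), and 243 (11.8%) had 1 probe called higher and another called lower. Every DMSO-detected probe was called higher in 431 and lower in 317, a more even split than the 1718 and 679 of all the regions by representing probe. Per probe, 39.5% of DMSO-detected region probes were called higher and 27.4% lower, against 36% and 35.5% of all probes tested. The median range of a region's probes was 0.72 on the log2 scale.

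The array probes 1067 coordinate sets on both strands, which allows the strands of a stretch to be set side by side. Both strands were detected in DMSO in 732 sets, F alone in 123, R alone in 147 and neither in 65. Of the 732 pairs, 208 were called higher on both strands, 63 lower on both and 109 in opposite directions, while 289 had 1 strand called and 63 neither. With spike-in scaling 37 were higher on both strands and 105 lower on both, and with normexp 390 and 23. On the main scale 50.8% of all the regions were called higher and 20.1% lower. The pair counts were not tested against these shares. Across the pairs the differences correlated at a Pearson r of 0.23 and a Spearman rho of 0.17, as a description of 732 stretches measured on the same 6 arrays. In 95 pairs the strands' differences were over 4-fold apart.

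At chr9:40029344-40050160 a single detected probe stood for each strand. The F entry went from -2.84, -2.76 and -2.97 in DMSO to -1.14, -1.34 and -1.36 in RA, a difference of 1.57 ± 0.10. The R entry went from -1.69, -2.13 and -1.93 to -5.85, -5.79 and -5.58, not well above background, and was at least 12.0-fold lower. At chr6:82608223-82669023 the F entry rose by 1.33 ± 0.11 from -3.99, -4.13 and -4.07, and the R entry's brightest probe fell from -3.66, -3.54 and -3.27 to -7.66, -7.57 and -7.04. Another R probe there was well above background on all 3 RA arrays. At chr11:22510175-22522025 the F entry differed by 1.05 ± 0.35 beside the R fall given above, and this F call was lost with median scaling (0.71). At chr3:87757295-87774970 the opposite calls came from the choice of probe. The R entry rose by 5.11 ± 0.09 (-5.08, -5.19 and -5.14 to -0.12, -0.07 and 0.13), and the brightest F probe, at 7.14, 7.16 and 7.17 in DMSO, fell by 0.49, but the 4 other F probes were called higher by up to 5.91.

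**Figure D4:**
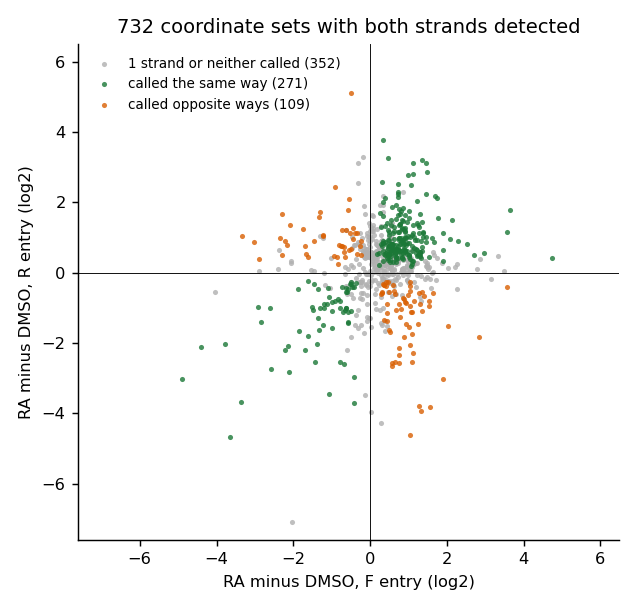
Each point is 1 of 732 coordinate sets with both strands detected in DMSO; the axes are the RA minus DMSO differences (log2) of the F and the R entry. Pairs called the same way (271, green) lie in the upper right (208) and lower left (63), the 109 called opposite ways (orange) lie in the upper left and lower right, and the pair at chr3:75451370-75459674 lies alone at the bottom.

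The differences of close neighbours correlated more on the same strand than on opposite strands, with no test of this. For overlapping regions Pearson r of the differences was 0.40 on the same strand (900 pairs) and 0.19 on opposite strands (822 pairs of unequal coordinates), and for gaps up to 10 kb it was 0.49 (332) and 0.22 (200). Between 10 and 100 kb it was 0.30 and 0.16, between 100 and 500 kb 0.18 on either, and between 0.5 and 2 Mb 0.07 and 0.08. These are descriptions: pairs share arrays and regions, and overlapping entries, as 1399 of the regions are on their own strand, can share a transcript. Joined across gaps of up to 100 kb the regions formed 1335 runs, of which 490 were single regions and 522 held at least 3.

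The run with most members, 18 on chromosome 12 between 110653148 and 110988678, had 14 regions called higher and 4 not called, the latter with differences from -0.27 to 0.43. Of its 13 F regions 11 were called higher and 0 lower, with a median of 1.29, and of its 5 R regions 3 were called higher, with a median of 1.30. The brightest were chr12:110894095-110899517_F, from a mean of 1.18 to 2.27, and chr12:110842154-110883594_F, from 0.90 to 2.71, the run's largest difference at 1.81 ± 0.32. Toward its far end the differences were smaller, at 0.35 ± 0.10 in chr12:110967974-110969051_F. With median, spike-in or quantile scaling 13 were called higher and 1, an R region, was called lower. Of all the regions 50.8% were called higher on the main scale. Several F regions of the run overlap and so are not separate observations.

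On chromosome 1, 15 regions between 138442536 and 138632310 split by strand and position. The 6 F regions from 138528250 onward all fell: chr1:138579972-138587381_F from -0.83 to -4.72 (-3.89 ± 0.25), chr1:138592780-138622719_F from -0.43 to -4.25 (-3.83 ± 0.14) and the rest by 1.31 to 2.35. Several of these 6 overlap, since chr1:138570107-138632310_F spans the regions just named, and so they are not all separate observations. The R entries of the same stretches rose, chr1:138528250-138538250_R by 1.71 ± 0.16 and chr1:138570107-138632310_R by 0.45 ± 0.09. Before that position, chr1:138442536-138520766_F rose by 1.55 ± 0.13 and chr1:138518674-138521227_R fell by 1.82 ± 0.29. The other F regions there differed by -0.05 (not called) and 0.67. The other R regions there differed by 0.43, 0.91 (not called) and 0.50, against the direction of the R fall. The position of the split was chosen after the values were seen. The median over the 6 R regions was 0.47, and -0.01 with spike-in scaling.

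The 2 other longest runs, with 16 regions each, differed from these and from each other. Their calls moved with the scaling. On chromosome 8 between 122712014 and 123008463, 10 were called higher and 0 lower, with a median of 0.57, but 6 higher and 1 lower with median scaling, and 3 higher and 1 lower (median 0.08) with spike-in scaling. On chromosome 2 between 174787150 and 175701875, 4 were called higher and 3 lower, with a median of -0.03 and a lowest value of -3.29. There median scaling gave 2 higher and 6 lower, spike-in scaling 0 and 9, and normexp 12 and 1. Among the 266 runs with at least 4 regions, every region was called higher in 22 and lower in 4. Of all the regions 50.8% were called higher and 20.1% lower, and the run counts were not tested against these shares. Median scaling turned the run counts into 5 and 8, spike-in scaling into 2 and 9, quantile normalization into 9 and 5, and normexp into 81 and 0. The longest of the 4, 6 regions on chromosome 4 between 146889506 and 146979325, fell on both strands by 1.07 to 4.66, and holds the chr4:146889650-146904300_R loss above.

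**Figure D5:**
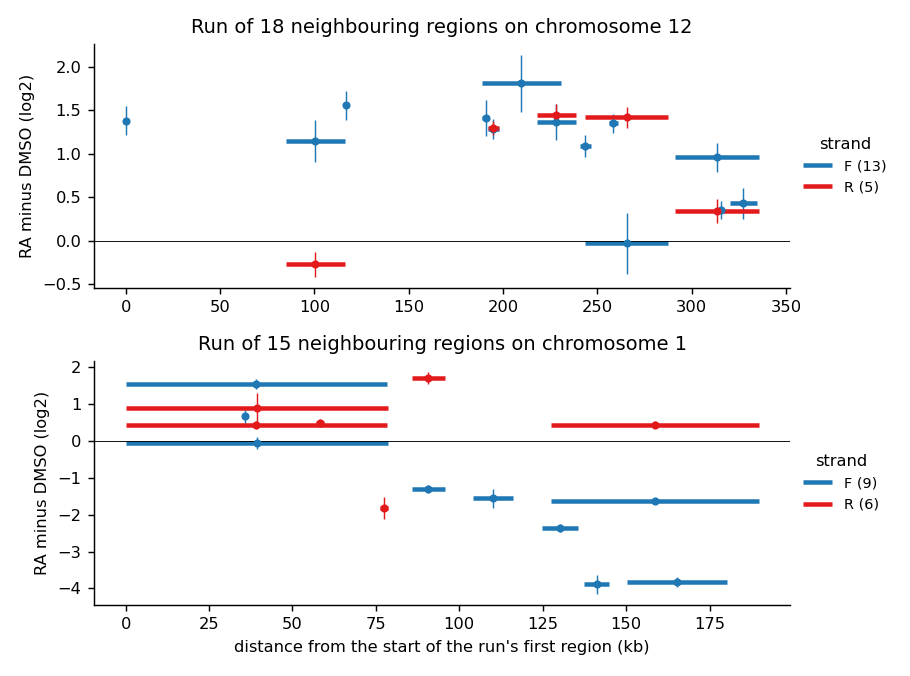
RA minus DMSO difference (log2) of each region in the runs of 18 regions on chromosome 12 and 15 on chromosome 1, against the distance in kb from the run's start. Bars span the region, points and vertical lines are the difference ± SE, and blue and red are F and R; most of the chromosome 12 run lies above 1, and the F regions in the far part of the chromosome 1 run lie below -1 while the R regions there lie above 0.

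Noncoding RNA genes that have a symbol were called in both directions too. Of 60 on the list 26 were tested, and 11 were called higher and 10 lower (of the 16017 genes tested, 34.8% were called higher and 40.8% lower), with a median difference of -0.09. Median scaling gave 8 higher and 14 lower, and spike-in scaling gave 6 and 14. The imprinted antisense RNAs Kcnq1ot1 and Airn rose by 1.71 ± 0.38 and 1.52 ± 0.13. The small nucleolar RNA host genes Snhg1, Snhg3, Snhg5, Snhg6 and Snhg12 all fell, by 0.64 to 1.64 on the main scale, and were called lower with each of the 4 other scalings (the authors' values among them) and with normexp, from -0.43 (Snhg6, quantile normalization) to -2.12 (Snhg5, spike-in scaling). Platr10, a pluripotency-associated transcript, went from 1.02, 0.96 and 1.02 in DMSO to levels not well above background on any RA array. Over the 385 DMSO-detected probes of RefSeq long noncoding RNA genes 39.0% were called higher and 31.4% lower, with a median of 0.18, near the 39.5 and 27.4% of the region probes.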

How the data were processed

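Total RNA of J1 cells was labelled with Cy3 and hybridised to 1-colour Agilent arrays, per the labels' protocols. The authors deposited the scanner output of Agilent Feature Extraction (10.7 per the submitters' processing notes), in which each spot has a processed signal, a background-corrected intensity, and a flag for being well above background. They also deposited a series table of log2 values, used here as an alternative; its scale and centring are not given in the sources used here. Coordinates are those of the design, mm9 per the file headers. From the intensity, log2 values minus each array's 75th percentile over non-control spots were computed, outlier spots were dropped, and probes well above background on at least 3 of 6 arrays were fitted with limma 3.58.1 (lmFit and eBayes, RA and DMSO only, Benjamini-Hochberg over all probes tested, adjusted p under 0.05), a procedure tested on simulated data. Symbols were matched through RefSeq for 27235 of 55681 probes. A planned test of the regions in the vitamin C samples could not be made, since that design has 0 region probes. The number of arrays, 3 per group, limits the precision.

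Regions named are the 8 largest falls and rises among called regions without overlap, the 6 brightest in DMSO, 4 on each side of the detection limit, 4 strand pairs, the 4 longest runs and the 4 smallest differences. Others named were chosen after their values were seen. The regions, the rule and the gene lists were all chosen with earlier results of these data known. Alternatives covered scaling, background correction, the authors' values, probe filters, probe summary, membership, threshold and single samples left out.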

Additional observations from a re-analysis of the deposited data

How the results depend on the processing

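The balance of rises and falls depended on scaling, background correction and membership, and the cause was not tested. With median scaling the regions' median difference was 0.084 and the share of rises among calls 54.3%. Spike-in scaling gave -0.059 and 42.0%, with 747 regions called higher and 1031 lower. Quantile normalization gave 0.18 and 61.6%, and the authors' values 0.19 and 61.5%. Normexp background correction, on the median signal because mean signals were not used here, gave 0.53 and 84.7%, with 451 lower. Where every probe of a region had to be detected in DMSO, 480 regions were called higher, rises were 50.6% and the median was 0.035. Requiring 2-fold left 701 higher and 350 lower. Among the 1811 regions with a DMSO level over -3, a limit chosen after seeing the data, 905 were higher. Counting a region as lost unless a probe was on at least 2 RA arrays gave 171, and with every probe detected 37. Leaving out 1 array at a time gave 1522 to 1761 higher and 597 to 746 lower. With the replicate number as a block 1637 were higher and 645 lower; same-numbered samples' deviations correlated at -0.03, 0.02 and -0.04, so the numbers were not taken to pair the samples. Of 566 alternatives run for the 36 named regions, 37 lost a call, 13 gained one and 6 changed sign: chr10:62812866-62831016_F (-0.075 with spike-in scaling, -0.040 with quantile normalization, -0.042 with the authors' values), chr7:108209996-108216032_R (0.010 and 0.0064 with the last 2) and chr3:87757295-87774970_F (4.54 as the mean of its probes). Representing a region by its brightest probe in DMSO or in RA, chosen after seeing the data, changed no count by over 1.5 times. Signal near background limits the regions under about -5.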
